A study of Mus musculus with 6 samples.

Results

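The genes described here mark motor neurons or carry acetylcholine signalling in the mouse spinal cord. They are Chat, Slc18a3, Slc5a7, Ache, Mnx1, Isl1, Isl2 and Chodl, taken by gene name, and they make up 8 of the 25576 genes listed in at least 1 library. Bulk-seq was done on ribosomal RNA-depleted RNA from spinal cord tissue of FVB mice at postnatal day 4, in 6 libraries. The 3 libraries labelled SMA came from mice without mouse Smn (mSmn-/-, hSMN22tg/0), a severe model of spinal muscular atrophy, and the 3 labelled control came from heterozygous mice (mSmn+/-, hSMN22tg/0). Mice of both groups thus carried the human SMN2 transgene, and the controls had 1 working mouse Smn allele. For the bulk triplicates the authors give n = 1 per group. The labels do not say that replicates came from separate animals, so p-values measure the spread between these libraries, which may be technical. Levels are given in FPKM, mapped fragments scaled by transcript length and by the size of the library. The depth of the libraries is unknown.

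Smn1, the mouse gene targeted in this model, had levels of 10.4, 8.64 and 11.9 FPKM in controls 1 to 3, in that order, whereas SMA libraries 1 to 3 held 8.48, 9.30 and 11.1 FPKM. The groups overlapped. A level over the whole gene also holds exons outside the altered part, so it gives no check of the genotypes, and every direction reported below rests on the labels.

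Spinal motor neurons send their axons to skeletal muscle and release acetylcholine at the neuromuscular junction. The choline transporter Slc5a7 takes choline into the terminal, choline acetyltransferase (Chat) turns it into acetylcholine, the vesicular transporter Slc18a3 loads it into synaptic vesicles, and acetylcholinesterase (Ache) breaks it down after release. Mnx1, Isl1 and Isl2 are homeodomain transcription factors that set motor neuron identity in the embryo, and Chodl encodes a membrane lectin enriched in fast motor neurons. Other cells of the cord share some of these genes: preganglionic autonomic neurons and some interneurons are cholinergic, Isl1 is also made in dorsal interneurons, and Ache is made by many neurons. In bulk tissue, fewer cells of a type and less RNA per cell cannot be told apart.

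Control replicate 2 stood apart from the other libraries. All 12 genes of a hepatocyte list were highest there, with a summed level of 28821 FPKM against 46.2 to 101 FPKM in the other 5 libraries, led by Alb at 15894 FPKM. The 11 listed genes of an erythroid list were also highest there, with a summed level of 18889 FPKM against 1115 to 1865 FPKM, led by Hbb-bs. Neuronal genes were low in the same library: the geometric mean of 12 pan-neuronal genes was 106 FPKM there and 166 to 180 FPKM in the others. Of the 8 members, 7 had their lowest value in control replicate 2, as did 44.9% of the 17088 genes tested. For this reason a fold change printed for a gene is given with and without that library.

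Ordered by mean FPKM over the 6 libraries, Ache was highest at 51.5 FPKM, followed by Chodl at 15.3, Slc18a3 at 11.8, Slc5a7 at 8.68, Isl1 at 2.98, Chat at 2.27, Isl2 at 0.838 and Mnx1 at 0.410 FPKM. Ache was above Chodl, Slc5a7 above Isl1, and Chat above Isl2 in all 6 libraries. Neighbours in the rest of this order were not separated in every library: Chodl was above Slc18a3, Slc18a3 above Slc5a7 and Isl1 above Chat in 5 of 6 libraries, and Isl2 was above Mnx1 in 4. The enzyme Chat was listed at a lower level per length than the transporters Slc18a3 and Slc5a7 in each of the 6 libraries.

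Chat and Slc18a3 form 1 locus, with the vesicular transporter inside the span of the enzyme gene and on the same strand. In GENCODE M21 Chat lies at chr14:32408203-32465989 and Slc18a3 at chr14:32462438-32464850 (GRCm38, minus strand), with 1059 bases between their RefSeq starts and with 0 Chat exons inside the Slc18a3 span. The deposited values give both genes, together with the antisense gene Gm2990, the same span chr14:32408203-32483539, so how reads were divided among them is not known and their levels are less certain. Isl2 likewise has the same deposited span as Gm17226, an antisense gene inside it. The other 5 members share a deposited span with no other gene. Promoter entries from RefSeq (GRCm38.p6) matched all 8 members, and the sequence before the start is shown for 4: the pair of genes that share this locus, the choline transporter and Chodl, since the ratios described further on turn on these genes. The Chat sequence covers chr14:32465990-32466159 on the minus strand and leaves out bases that other Chat transcripts hold as exons. The Slc18a3 sequence covers chr14:32464851-32465100 on the minus strand, inside the Chat span, and overlaps an exon of Gm2990 on the opposite strand. The Slc5a7 sequence covers chr17:54299035-54299284 on the minus strand and the Chodl sequence chr16:78930698-78930947 on the plus strand, neither overlapping an annotated exon. Capitals mark matches, on either strand, to TATAA (the core of the TATA box), to CCAAT (the CCAAT box), to GGGCGG (the GC box), to CANNTG (the E-box) or to TAATTA (a string bound by many homeodomain factors). None of these strings contains another.
Chat: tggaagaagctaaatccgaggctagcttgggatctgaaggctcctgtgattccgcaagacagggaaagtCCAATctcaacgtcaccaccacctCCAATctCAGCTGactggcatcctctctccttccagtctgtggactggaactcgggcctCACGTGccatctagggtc
Slc18a3: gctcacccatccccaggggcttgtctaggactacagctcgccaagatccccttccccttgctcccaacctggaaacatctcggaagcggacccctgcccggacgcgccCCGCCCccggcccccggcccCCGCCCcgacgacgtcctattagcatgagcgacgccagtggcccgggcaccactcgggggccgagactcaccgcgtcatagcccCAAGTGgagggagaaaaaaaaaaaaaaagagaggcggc
Slc5a7: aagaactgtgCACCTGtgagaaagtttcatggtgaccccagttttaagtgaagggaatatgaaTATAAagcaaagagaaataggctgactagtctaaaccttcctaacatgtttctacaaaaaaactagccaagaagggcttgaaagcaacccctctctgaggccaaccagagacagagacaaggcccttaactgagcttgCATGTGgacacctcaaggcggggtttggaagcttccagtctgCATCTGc
Chodl: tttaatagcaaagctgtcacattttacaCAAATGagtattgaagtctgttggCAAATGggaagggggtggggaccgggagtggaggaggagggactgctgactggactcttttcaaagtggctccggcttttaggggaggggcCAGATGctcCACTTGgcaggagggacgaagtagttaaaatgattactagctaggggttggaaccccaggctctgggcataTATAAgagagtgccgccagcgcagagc
The Slc18a3 window held 2 matches to GGGCGG, present in 32.7% of 32841 promoters over the 250 bases before the start, and 0 matches to the TATA box string. That string, present in 22.8% of promoters, had 1 match in Slc5a7 and 1 in Chodl, and CCAAT, present in 33.9%, had 2 in the 170 bases of Chat. All 4 windows held CANNTG, which 66.2% of promoters hold, with 2 matches in Chat, 1 in Slc18a3, 3 in Slc5a7 and 4 in Chodl. TAATTA had 0 matches in the 4 windows and was present in 4.84% of promoters. A match is a description of the letters and not of binding.

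Among the cholinergic genes, Chat levels were 1.76, 1.53 and 3.06 FPKM in the controls and 1.97, 2.68 and 2.59 FPKM in SMA, in the order of the replicate numbers as throughout. The SMA values lay inside the control range. Slc18a3 was at 9.07, 6.51 and 14.8 FPKM in the controls and at 12.7, 14.9 and 13.1 FPKM in SMA. The groups overlapped through control replicate 3, while the other 2 controls were below every SMA library. Slc5a7 was at 9.38, 5.03 and 12.5 FPKM in the controls and at 7.49, 8.38 and 9.32 FPKM in SMA, and Ache was at 52.8, 31.9 and 62.5 FPKM in the controls and at 51.6, 53.0 and 56.9 FPKM in SMA. For both genes the SMA libraries sat close together, between a low control replicate 2 and a high control replicate 3.

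The groups were compared on log2(FPKM + 1) with limma, which borrows information on the variance across genes, and a gene was called at an adjusted p under 0.05; fold changes on this scale understate the change of low genes. Slc18a3 had a log2 fold change (SMA over control) of 0.45 with a standard error (SE) of 0.26 and an adjusted p of 0.683. Chat differed by 0.16 (SE 0.21), Ache by 0.18 (SE 0.24) and Slc5a7 by -0.013 (SE 0.29), with adjusted p from limma of 0.775, 0.763 and 0.988. The 95% interval of each of the 4 differences spanned 0. Without control replicate 2 the log2 fold change of Slc18a3 was 0.20 (SE 0.18) and that of Chat 0.021 (SE 0.20), Ache turned to -0.093 (SE 0.084), and Slc5a7 moved to -0.34 (SE 0.14) with an adjusted p from limma of 0.458. Both remaining controls were then above all 3 SMA libraries for Slc5a7, by a margin of 9.38 against 9.32 FPKM at the nearest values.

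**Figure D1:**
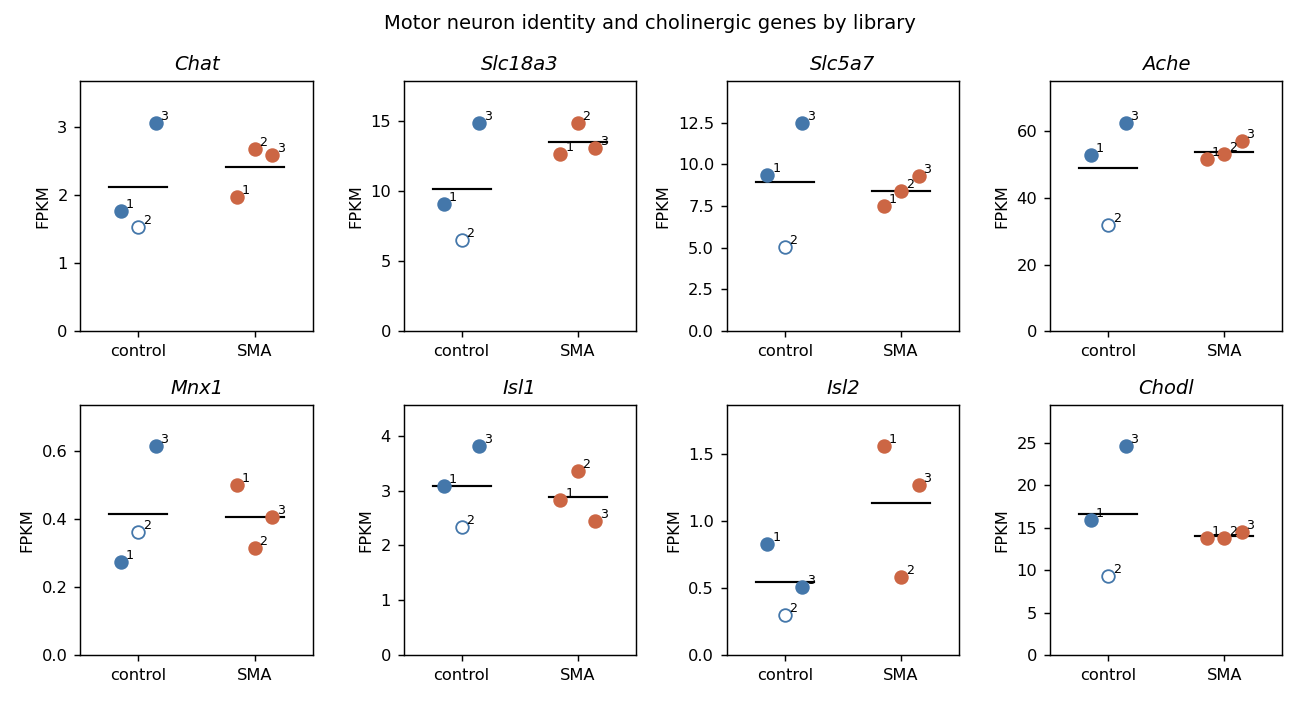
FPKM of the 8 genes (y axis, from 0) in each library, with controls in blue, SMA in orange, replicate numbers beside the points, control replicate 2 as an open point and black lines at group means. Control replicate 3 is the highest library for 6 genes and control replicate 2 the lowest for 7, and the SMA libraries lie within the control range for Chat, Slc5a7, Ache, Mnx1, Isl1 and Chodl.

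Of the identity factors, Mnx1 and Isl2 had the lowest means of the 8 members, and Isl1 lay between Slc5a7 and Chat. Mnx1 was at 0.272, 0.360 and 0.613 FPKM in the controls and at 0.498, 0.313 and 0.406 FPKM in SMA, with overlapping groups. Its mean was below the minimum of 0.5 FPKM, so 7 of the 8 members were tested. With no minimum, Mnx1 had a log2 fold change of -0.0040 (SE 0.11), and -0.029 (SE 0.13) without control replicate 2. Isl1 was at 3.08, 2.34 and 3.81 FPKM in the controls and at 2.83, 3.37 and 2.45 FPKM in SMA, which overlapped, with a log2 fold change of -0.062 (SE 0.18, limma adjusted p = 0.895), and -0.20 (SE 0.15) without control replicate 2.

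Isl2 was at 0.824, 0.295 and 0.504 FPKM in the controls and at 1.56, 0.583 and 1.27 FPKM in SMA. SMA replicates 1 and 3 were above all controls, and SMA replicate 2 was within the control range, so the groups overlapped. The log2 fold change was 0.46 (SE 0.24), with a limma adjusted p of 0.683, and 0.34 (SE 0.23) without control replicate 2. Both Isl1 and Isl2 are also made by sensory neurons of the dorsal root ganglia. All 8 genes of a dorsal root ganglion list were listed, but at no more than 1.13 FPKM in any library, with P2rx3 the most abundant. Their summed level was 3.01, 0.768 and 1.94 FPKM in the controls and 5.01, 3.14 and 2.05 FPKM in SMA, highest in SMA replicate 1 and lowest in control replicate 2, as Isl2 was. The other libraries did not all keep this order: the sum was higher in SMA replicate 2 than in SMA replicate 3, and Isl2 was lower. Isl1 was highest in control replicate 3. The part of ganglion neurons in the Isl2 values was not tested.

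Chodl, the gene for the motor neuron lectin, was at 15.9, 9.26 and 24.6 FPKM in the controls and at 13.8, 13.7 and 14.5 FPKM in SMA. The SMA libraries lay within 1 narrow band, with a standard deviation (SD) of 0.416 FPKM against 7.69 FPKM in the controls, and inside the control range. The log2 fold change was -0.13 (SE 0.31), with a limma adjusted p of 0.871. Without control replicate 2, both controls were above all 3 SMA libraries and the log2 fold change was -0.47 (SE 0.16), with an adjusted p of 0.398. Without control replicate 3 it turned to 0.19. Without control replicate 1 it was -0.11. The Chodl log2 fold change was thus negative in 16 of 17 settings and positive only without control replicate 3. The settings refit the same libraries, so they are not independent.

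Across the members, 0 of the 7 tested were called, as were 0 of 17088 genes in all (0%) by limma. At an unadjusted p under 0.05, 0 of 7 members passed, against 990 genes (5.79%), of which 409 were lower and 581 higher in SMA. Groups that did not overlap were found for 0 of 7 members and for 17% of all genes tested. The exact two-sided permutation test gave p-values from 0.2 for Isl2 to 1 for Mnx1, where 0.1 is the smallest that 3 libraries against 3 allow. The median log2 fold change of the tested members was 0.16, against 0.044 over all genes tested.

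Without control replicate 2, 0 of 7 members were called, against 2 of 16574 genes (0.0121%). These 2 genes, named after their values were seen, were Snora74a and Rpph1, both small structural RNA genes that were higher in SMA. With the same library left out, 1 gene was called after pan-neuronal or median ratio scaling and 0 with no minimum FPKM. At an unadjusted p under 0.05, 2 members passed, Chodl and Slc5a7, both lower in SMA, against 862 lower genes (5.2%) and 874 higher genes (5.27%). The same 2 members had all SMA libraries below both controls, which was so for 13.9% of all genes. The median of the members became -0.093, against 0.0016 over all genes. Leaving out control replicate 3 gave the opposite picture, with all 7 members positive and a median of 0.36, against 0.065 over all genes. Slc18a3 was then higher at an unadjusted p under 0.05 (log2 fold change 0.74, SE 0.16, limma adjusted p = 0.447), where 6.07% of all genes were higher at that level. Slc18a3 was positive in all 17 settings, at 0.14 to 0.74, and Isl2 in the 16 settings in which it was tested, at 0.31 to 0.94, while each of the other 5 tested members had both signs. All settings refit the same libraries, so these counts are not independent support.

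**Figure D2:**
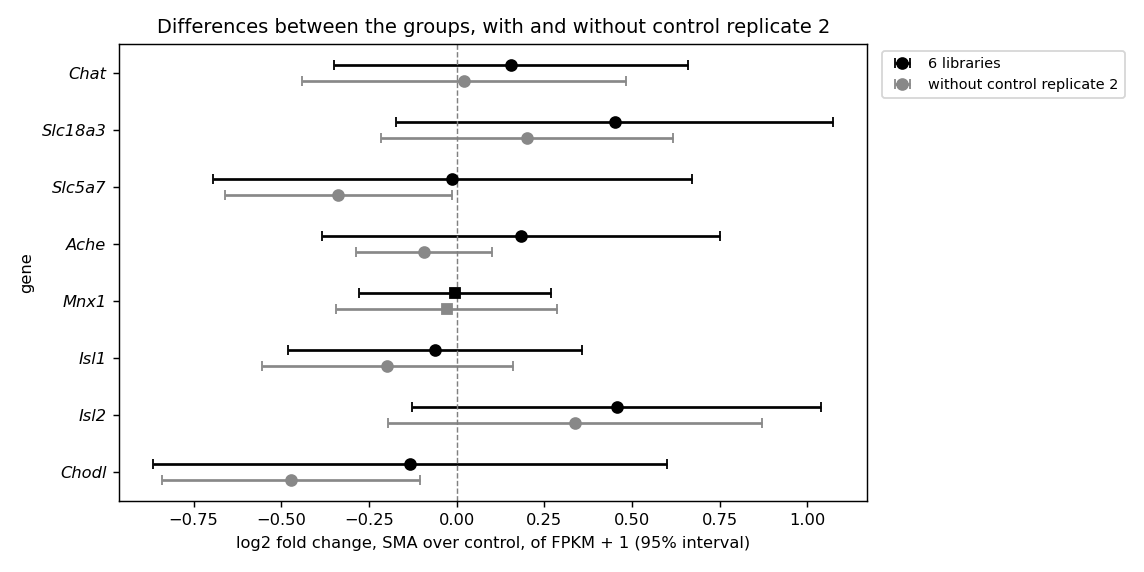
Log2 fold change (x axis, SMA over control, of FPKM + 1) with 95% intervals for each gene (y axis), from limma over 6 libraries in black and without control replicate 2 in grey; squares mark Mnx1, fitted with no minimum FPKM. With 6 libraries every interval spans 0, and without control replicate 2 those of Chodl (-0.47) and Slc5a7 (-0.34) lie below 0.

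Ratios between members within a library do not depend on how the library was scaled. All 28 pairs of members were computed, a comparison chosen after the values were seen and described with no test, and 4 pairs had groups that did not overlap, as did 16.7% of all pairs of tested genes above 0 in every library. Slc18a3 was in 3 of these 4. With control replicate 2 left out, 7 pairs did not overlap: the same 4, Chat to Slc5a7 and Chat to Chodl, which were higher in SMA, and Slc5a7 to Ache, which was lower. Of all such gene pairs, 27.2% did not overlap with that library left out, so neither count was above the share over all pairs. Its ratio to Slc5a7 was 0.967, 1.30 and 1.19 in the controls and 1.69, 1.77 and 1.40 in SMA. All 3 SMA libraries had more of the vesicular transporter per choline transporter than any control, control replicate 2 included. Of all genes tested, 3.33% had a ratio to Slc5a7 that was higher in every SMA library than in every control.

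The ratio of Slc18a3 to Chodl was 0.569, 0.703 and 0.603 in the controls and 0.920, 1.08 and 0.901 in SMA, and its ratio to Isl1 was 2.94, 2.78 and 3.90 in the controls and 4.48, 4.42 and 5.33 in SMA. Both ratios were higher in every SMA library than in every control. The same was so for 9.9% of all genes relative to Chodl and for 7.58% relative to Isl1. The fourth pair was Ache to Chodl, at 3.32, 3.45 and 2.54 in the controls and 3.75, 3.86 and 3.93 in SMA.

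Chat did not separate in the same way from its neighbour at the locus. The ratio of Chat to Slc18a3 was 0.194, 0.235 and 0.207 in the controls and 0.156, 0.180 and 0.198 in SMA, so that the groups overlapped at SMA replicate 3 and control replicate 1. Since Chat and Slc18a3 share a span in the deposited values, the division of reads between them could move this ratio and the level of Slc18a3, and its part was not tested. Slc5a7 and Chodl kept a ratio of 0.508 to 0.643 over the 6 libraries, with overlapping groups, while the Chodl level itself ran from 9.26 to 24.6 FPKM.

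**Figure D3:**
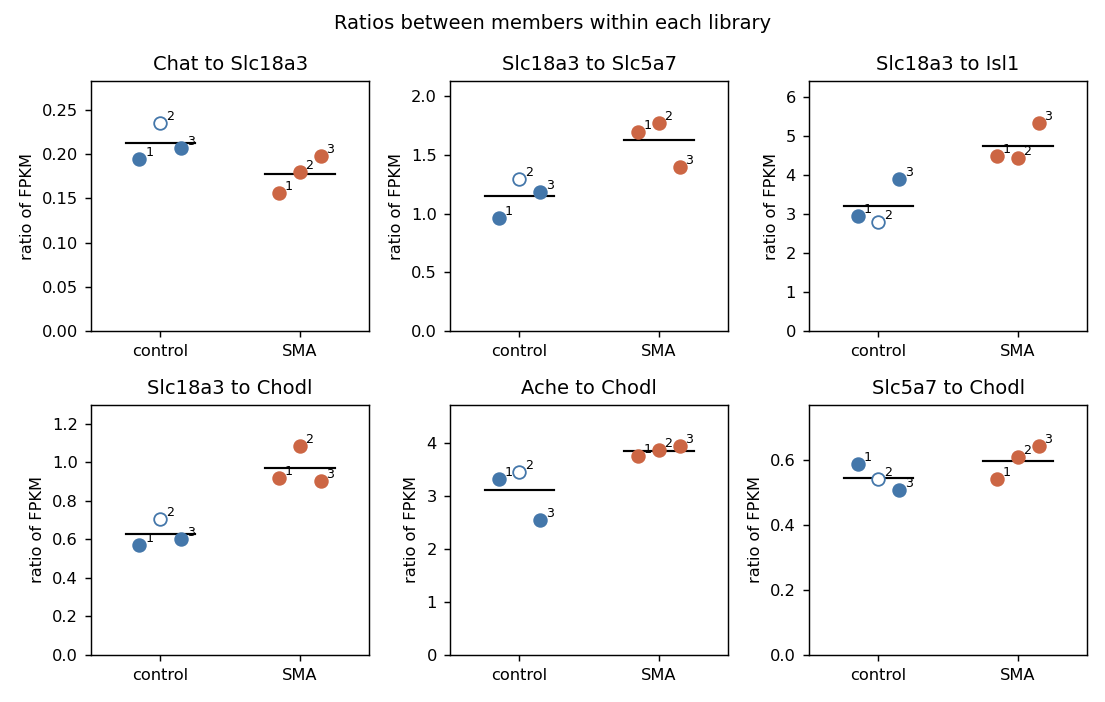
Ratio of FPKM between members (y axis, from 0) in each library for 6 pairs, with controls in blue, SMA in orange, control replicate 2 as an open point and black lines at group means. Slc18a3 to Slc5a7, Slc18a3 to Isl1, Slc18a3 to Chodl and Ache to Chodl are higher in every SMA library, and the other 2 pairs overlap.

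Set against the geometric mean of the 12 pan-neuronal genes, Chodl was at 9.62%, 8.72% and 14.4% in the controls and at 8.08%, 7.77% and 8.03% in SMA. All SMA libraries were then below all controls, including control replicate 2. The other 7 members overlapped on this scale. Smn1, whose groups overlapped in FPKM, was on this scale also lower in every SMA library than in every control. With libraries scaled to these genes, 18.8% of all genes tested were lower in every SMA library than in every control, a share close to 1 of 7 members, and the median log2 fold change over all genes moved to -0.19. Of the 12 pan-neuronal genes themselves, 4 (Tubb3, Rbfox3, Syt1 and Elavl3) were higher in every SMA library than in every control, and 0 were lower in every SMA library. Counted in either direction, 17% of all genes tested had groups that did not overlap. By limma 0 of 12 were called and 0 passed at an unadjusted p under 0.05. Their median log2 fold change was 0.28, or 0.069 without control replicate 2. With that library left out, 2 of the 12 (Rbfox3 and Syt1) were higher in SMA at an unadjusted p under 0.05, against 5.27% of all genes. Meg3 and Snhg11, 2 long noncoding RNAs of this list, were the most abundant and were not lowest in control replicate 2, unlike the other 10.

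Control replicate 3 was the highest of the 6 libraries for 6 of the 8 members, Chat, Slc5a7, Ache, Mnx1, Isl1 and Chodl, where 17.5% of all genes tested were highest in that library. Relative to the median of the other 5 libraries its Chodl level was 1.78 times as high, Mnx1 1.70, Chat 1.55, Slc5a7 1.49, Isl1 1.35, Ache 1.18, Slc18a3 1.17 and Isl2 0.61 times, while the pan-neuronal mean was at 1.00 times. Hox genes, which are set along the length of the cord, showed the same library: 5 of 6 spinal Hox genes were highest in control replicate 3. Hoxd10, a gene of the lumbar cord, was at 26.1, 15.1 and 50.7 FPKM in the controls and at 18.2, 27.0 and 24.0 FPKM in SMA, and Hoxc10 at 23.7, 14.6 and 35.9 FPKM in the controls and at 18.2, 21.8 and 21.1 FPKM in SMA. Both overlapped between groups and were high in control replicate 3. Their log2 fold changes were -0.25 (SE 0.41) and -0.19 (SE 0.29). With control replicate 2 left out, these 2 of the 6 were lower in SMA at an unadjusted p under 0.05, at -0.66 (SE 0.26, limma adjusted p = 0.448) for Hoxd10 and -0.50 (SE 0.16, limma adjusted p = 0.387) for Hoxc10. The other 4, Hoxc6, Hoxc8, Hoxc9 and Hoxd9, had log2 fold changes of 0.0066, 0.25, 0.11 and -0.069, and of -0.11, 0.087, -0.040 and -0.29 without that library. The summed level of the 6 Hox genes was 95.7, 70.0 and 157 FPKM in the controls and 89.1, 99.8 and 103 FPKM in SMA, with Hoxd10 the most abundant and none at 0. The part of cord level in the values of the members was not tested.

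**Figure D4:**
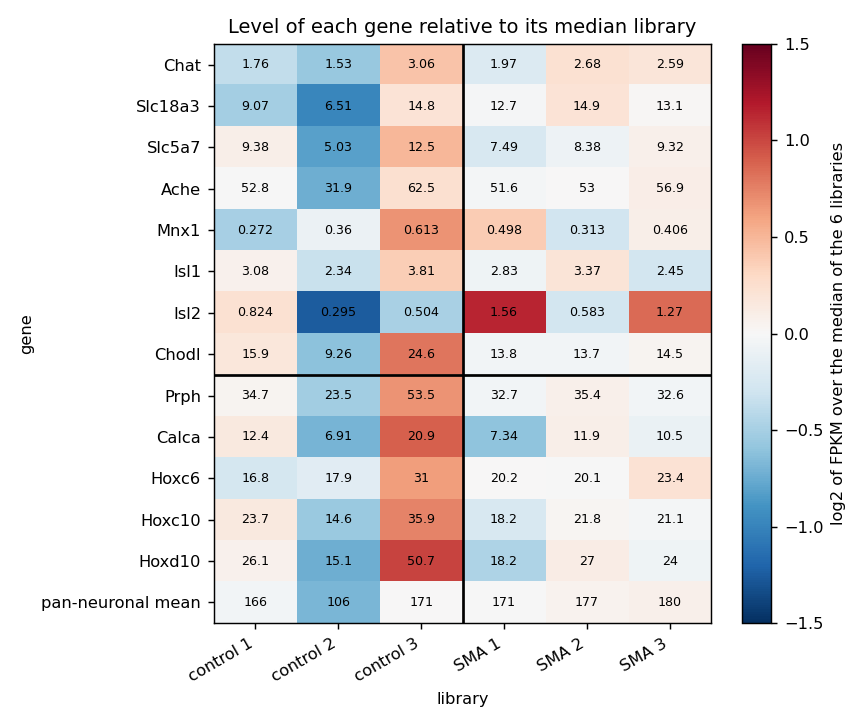
Colour gives log2 of the FPKM over the median of the 6 libraries for each gene (y axis) and library (x axis), and the printed numbers are FPKM. Above the black line are the 8 members and below it Prph, Calca, 3 Hox genes and the pan-neuronal geometric mean; control replicate 3 is high for Chodl (24.6), Hoxc10 (35.9) and Hoxd10 (50.7) and level for the pan-neuronal mean (171).

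The genes whose levels across the 6 libraries were most like each member were found by the root mean square (RMS) difference of log2(FPKM + 1), each gene centred on its own mean, among genes with a similar mean. For Chodl these were Inafm1, Hoxc10 and Arhgap36 (RMS 0.0813, 0.0821 and 0.106). For Slc5a7 they were Rhbdl3, Hoxd8 and Tceal5, and for Ache they were Atp2b2, Igsf9b and Hoxb9, the last at an RMS of 0.0432. For Slc18a3 they were Palm2, Sntg1 and Gm13889, for Chat Gm10340, 9530077C05Rik and A530041M06Rik, for Isl1 Lcmt2, Zfp433 and B3galt4, for Isl2 Klf5, Gm6921 and RP23-349I9.14, and for Mnx1 Filip1, Dsc3 and Gm18981. With 6 libraries, such likeness is a description.

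Of 30 other genes tied to motor neurons and their subtypes, 29 were listed and 28 tested, with 0 called. At an unadjusted p under 0.05, 2 were higher in SMA and 0 lower, and the median log2 fold change was 0.067, against 0.16 for the members. Nos1, the neuronal nitric oxide synthase of preganglionic neurons and interneurons, was at 5.04, 2.95 and 3.89 FPKM in the controls and at 6.42, 6.09 and 6.39 FPKM in SMA. All SMA libraries were above all controls, with a log2 fold change of 0.58 (SE 0.17, limma adjusted p = 0.683), and 0.43 (SE 0.12) without control replicate 2.

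Without control replicate 2, 2 genes of this list were lower and 1 higher at an unadjusted p, and the median was -0.066, with 18 of 28 genes negative. Aldh1a2, which makes retinoic acid in limb motor neurons and in the meninges, was at 10.1, 4.97 and 13.7 FPKM in the controls and at 8.60, 5.59 and 5.94 FPKM in SMA. The groups overlapped, with a log2 fold change of -0.38 (SE 0.34, limma adjusted p = 0.685). When control replicate 2 was left out, its remaining controls were above all SMA libraries and the log2 fold change was -0.75 (SE 0.19, limma adjusted p = 0.308). Calca, a peptide gene of motor and sensory neurons, was at 12.4, 6.91 and 20.9 FPKM in the controls and at 7.34, 11.9 and 10.5 FPKM in SMA, again with overlap, and its log2 fold change moved from -0.30 (SE 0.37, limma adjusted p = 0.751) to -0.67 (SE 0.24, limma adjusted p = 0.422) without control replicate 2. Control replicate 3 was the highest library for Calca and Aldh1a2, as for Chodl. The most abundant genes of the list, Agrn, Sv2a, Gfra1 and Ret, had means of 103, 74.9, 41.5 and 36.3 FPKM and log2 fold changes of 0.14, 0.24, 0.023 and 0.23, which became 0.046, -0.033, -0.12 and -0.039 without control replicate 2, so that 3 of the 4 changed sign.

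Genes around acetylcholine were also listed. Of 8 genes for choline supply and acetylcholine breakdown, 7 were tested, 0 called and 1 lower at an unadjusted p, with a median of 0.019. That gene was the choline transporter Slc44a1, at 21.0, 23.3 and 24.8 FPKM in the controls and at 20.3, 18.7 and 18.6 FPKM in SMA, without overlap (log2 fold change -0.25, SE 0.10, limma adjusted p = 0.683). It was -0.24 (SE 0.089) without control replicate 2, and the median of the list was -0.086. Acly, Chka and Chkb, enzymes of acetyl-CoA supply and choline phosphorylation, had log2 fold changes of 0.019, -0.21 and 0.019, and of -0.14, -0.086 and 0.10 without control replicate 2. Bche, a second cholinesterase that is also made in liver, was at 15.8 FPKM in control replicate 2 and at 2.05 to 3.12 FPKM elsewhere, whereas Ache was lowest in that library.

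Of 5 muscarinic receptors, 4 were tested and 0 called, with a median of 0.11. Chrm2, the most abundant of them and a receptor found on motor neurons, was at 11.7, 8.32 and 12.3 FPKM in the controls and at 12.5, 12.6 and 13.4 FPKM in SMA. The SMA libraries were above the controls by a small margin, with a log2 fold change of 0.26 (SE 0.15, limma adjusted p = 0.683), and 0.097 (SE 0.079) without control replicate 2. Chrm3 was at 5.71, 5.69 and 6.37 FPKM in the controls and at 4.81, 4.87 and 4.94 FPKM in SMA, lower in all 3, with a log2 fold change of -0.23 (SE 0.098) that passed at an unadjusted p under 0.05 and had a limma adjusted p of 0.683. It was -0.26 (SE 0.11) without control replicate 2, and the median of the receptors was -0.081. Of 11 neuronal nicotinic receptors, 6 were tested and 0 passed at an unadjusted p, with a median of 0.20 and, without control replicate 2, of -0.0069. Chrna4, Chrnb2, Chrna7 and Chrna3 were the most abundant, with log2 fold changes of 0.36, 0.19, 0.37 and 0.20, which became 0.089, -0.034, 0.17 and 0.020 without control replicate 2.

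**Figure D5:**
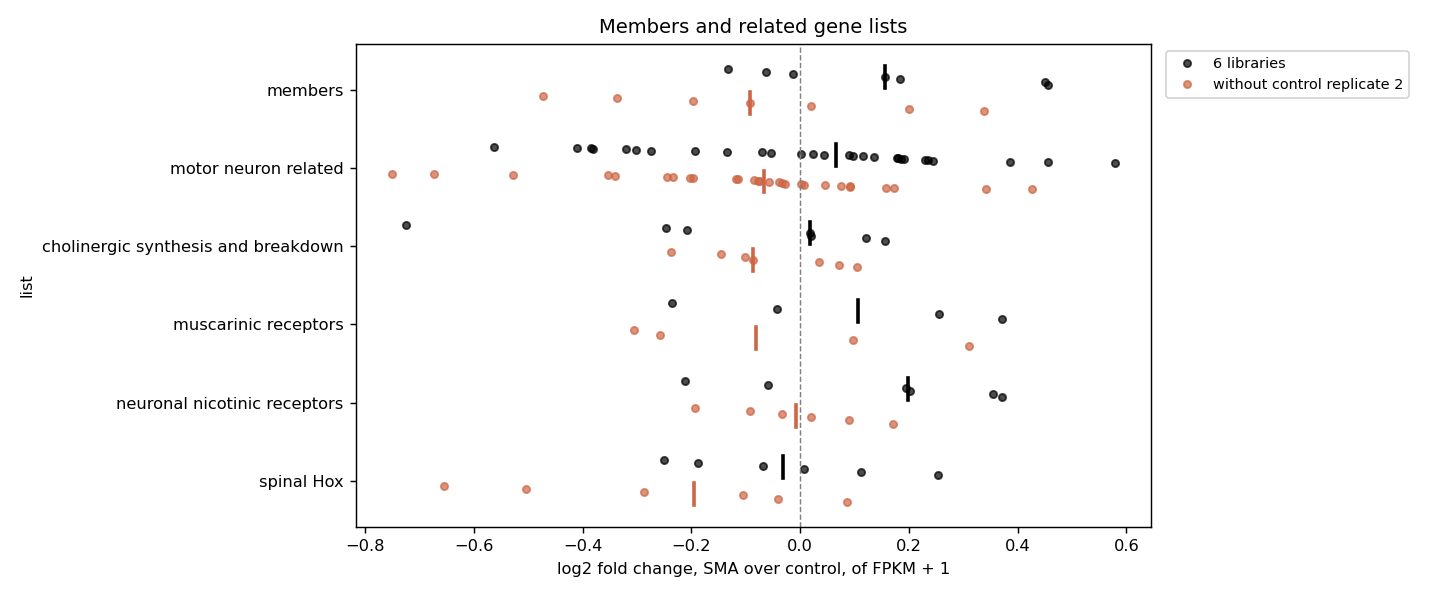
Log2 fold change (x axis, SMA over control, of FPKM + 1) of each tested gene in the members and 5 related lists (y axis), over 6 libraries in black and without control replicate 2 in orange, with vertical bars at the medians. The median of the members moves from 0.16 to -0.093 without that library, and that of the Hox genes from -0.031 to -0.20.

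Other tissues were measured beside the members. Of 5 subunits of the muscle nicotinic receptor, 3 were listed, all at or below 0.325 FPKM, and 10 skeletal muscle genes reached at most 3.36 FPKM (Acta1), with summed levels of 5.12, 5.92 and 3.54 FPKM in the controls and 7.58, 9.29 and 4.21 FPKM in SMA. Receptor subunits of muscle, a tissue that also makes Ache, were thus near 0 in all libraries. Summed over 13 glial genes, led by Mbp, the level was 1241, 1128 and 1634 FPKM in the controls and 1064, 1239 and 1215 FPKM in SMA, with a median log2 fold change of -0.023 and 0 of 13 at an unadjusted p under 0.05. That median was -0.11 without control replicate 2, with 10 of 13 genes negative and 3 (Aqp4, Mag and Pdgfra) lower at an unadjusted p under 0.05, as Chodl and Slc5a7 were. Prx, a gene of Schwann cells in the nerve roots, was at 6.57, 7.47 and 13.1 FPKM in the controls and at 11.5, 4.47 and 0.695 FPKM in SMA, highest in control replicate 3 as 6 members were, with a log2 fold change of -0.99 (SE 0.69, limma adjusted p = 0.683), and -1.1 (SE 0.72) without control replicate 2. For Drp2 and Egr2, also genes of Schwann cells, the log2 fold changes were 0.038 (SE 0.17) and -0.39 (SE 0.30), and -0.15 (SE 0.074) and -0.50 (SE 0.30) without control replicate 2. Of the forebrain genes, Emx1 was not listed and Neurod6 was at 4.32 to 10.7 FPKM. The part of nerve roots, other tissues and glia in the values of the members was not tested.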

How the data were processed

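The deposited FPKM per gene came from the authors, who aligned reads with HISAT2 and quantified each library separately with Cufflinks; the submitters' processing notes name mm10 (versions and annotation not given in the sources used here). Libraries were strand-specific and ribosomal RNA-depleted. Genes absent from a library were set to 0 FPKM. Groups were taken from the labels. On the log2(FPKM + 1) scale, genes whose mean reached 0.5 FPKM were tested with lmFit and eBayes of limma 3.58.1 (variance trend, R 4.3.3), two-sided, with Benjamini-Hochberg adjustment over all genes tested; the script was tested on simulated data. Exact permutation tests used scipy 1.17.1. Starts, counted from 0 in the deposited values, are given from 1. The members and gene lists were chosen with earlier results of these data known. Genes named are the members, Smn1, up to 4 most abundant genes of each list, genes of the motor neuron and cholinergic lists at an unadjusted p under 0.05 (4 list genes, 1 of these among them, and the sum over Schwann cell genes are not reported here), and the 3 genes most like each member; others were named after their values were seen. Alternatives were another pseudocount, 2 other filters, 3 scalings, a replicate block and leaving out each library. Read counts and the single-cell libraries were not used here.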

Additional observations from a re-analysis of the deposited data

How the results depend on the processing

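Under every setting tried, 0 members were called. Genes called numbered 0 over 6 libraries, 0 to 2 when 1 library was left out, and, without control replicate 2, 2 with the main settings, 1 with either pan-neuronal or median ratio scaling and 0 with no filter. Genes at an unadjusted p under 0.05 numbered 990, and 339 to 1752 when 1 library was left out; without control replicate 2 they numbered 1867 with pan-neuronal scaling, 1736 with median ratio scaling and 2222 with no filter. Pan-neuronal scaling of all 6 libraries gave 901 lower and 54 higher genes. Members at an unadjusted p numbered 0, and 0 to 2 when 1 library was left out (Isl2 passed without SMA replicate 2); without control replicate 2 they numbered 2 with either scaling and 1 with no filter. Combinations of median ratio scaling or no filter with this omission were chosen after seeing the data.

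The median log2 fold change of the members, 0.16, was -0.096 with pan-neuronal scaling. Over all genes tested the median moved from 0.044 to -0.19 with the same scaling. The median of the members was 0.071 with a mean of at least 1 FPKM and 0.076 with no filter. When 1 library was left out, it ranged from -0.093 to 0.36, against 0.0016 to 0.065 over all genes tested. Without control replicate 2 it was -0.16 with pan-neuronal scaling, -0.096 with median ratio scaling and -0.061 with no filter. Over all genes tested the medians in these settings were -0.053, -0.0011 and 0.012. Chat turned to -0.035 with pan-neuronal scaling and to -0.024 when control replicate 2 was also left out. Ache turned to -0.096 and -0.16 in the same settings, to -0.096 and -0.093 without control replicate 2 with median ratio scaling or no filter, and ranged from -0.093 to 0.38 when 1 library was left out. Slc5a7 turned to 0.0035 with libraries rescaled to the same total. When 1 library was left out, Slc5a7 ranged from -0.34 to 0.24, Isl1 from -0.20 to 0.065 and Chodl from -0.47 to 0.19. The cause of these turns was not tested.

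No pairing of the libraries by replicate number was seen: same-numbered libraries deviated from their group means with correlations of -0.037, 0.016 and 0.077. With 3 libraries per group, of which control replicate 2 stood apart, these values cannot decide whether the libraries were paired. With a replicate block, 659 genes passed at an unadjusted p and 0 were called. Read depth is unknown, which limits what can be said of Mnx1 and Isl2 at their low levels.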
